A study of Mus musculus with 2 samples.

Results

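The genes described here are the mouse counterparts of 10 genes whose loss causes primary microcephaly, a small brain, in humans: Aspm, Wdr62, Mcph1, Cdk5rap2, Cenpj, Stil, Cep63, Cep135, Cep152 and Cit. They were chosen by symbol, through the gene identifiers of the GENCODE M21 mouse annotation, and all 10 were found among the 42462 named genes of the tables. The libraries held total RNA of B6NCrl mouse forebrain, dissected at embryonic day 12.5, an age at which the progenitor layer still divides rapidly. The 2 biological replicates were pools of male and female embryos, 120 embryos in replicate 1 and 68 in replicate 2, and each library began with 10 ng of RNA. Both libraries form 1 group with no second condition, so levels, transcripts and the match between pools could be described and no test between groups was made. Values are in TPM, the length-scaled share of all transcripts, which divides reads by transcript length and can be compared between genes; errors are the SD over the 2 pools.

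A dividing neural progenitor copies its single pair of centrioles once per cycle, and the centrosomes built around them organise the poles of the mitotic spindle. In radial glia, the progenitors that line the ventricle, the position of the spindle and the timely completion of mitosis bear on whether both daughters stay progenitors. Most proteins of this set act at the centriole or spindle pole; citron kinase acts at the midbody, the bridge cut at the end of division, and microcephalin acts on chromosome condensation and the DNA damage response.

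The libraries held 33711030 expected counts, the estimated reads per gene, in replicate 1 against 34578499 in replicate 2, of which the 10 genes took 20255 and 20150. The dissection matched its label in the markers examined. All 5 forebrain markers (Emx1, Emx2, Lhx2, Nr2e1, Dlx1) passed 1 TPM in both pools, while 0 of 5 hindbrain and spinal cord Hox markers did. Hoxa2, Hoxb3 and Hoxb8 had no count. Midbrain markers were not examined. All 6 progenitor markers and all 5 cycling markers were also above 1 TPM. Blood and mesenchyme were present too, with all 4 erythroid markers summing to 5989 and 8104 TPM in replicates 1 and 2, and all 4 mesenchyme markers to 564 and 670 TPM. The 4 endothelium markers, all above 1 TPM, summed to 93.5 and 97.9 TPM. The 4 microglia and macrophage markers, also all above 1 TPM, summed to 33.5 and 38.8 TPM.

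All 10 genes were expressed at moderate levels that spanned 3.87-fold, from Cep63 at 35.4 ± 1.2 TPM to Cep135 at 9.16 ± 0.219 TPM (n = 2 pools). The level of Cep63, and each comparison made with it, rests on a model of its leading transcript that measures 2177 bases in the deposited tables and 4180 bases in M21. Their median was 16.8 TPM, against 21.6 TPM over the 12867 protein-coding genes that reached 1 TPM in both pools and 4.58 TPM over all 21461 protein-coding genes. All 10 reached 1 TPM in both pools, as did 60.0% of protein-coding genes and 34.5% of all named genes. All 10 also exceeded 5 TPM, reached by 48.3% of protein-coding genes, and 8 exceeded or equalled 10 TPM, reached by 40.7%. Among detected protein-coding genes they lay between the 28.9th and 63.8th percentiles. In bulk tissue, fewer cells of a type and less RNA per cell cannot be told apart, so these levels are averages over progenitors, neurons and other cells.

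The descending order was Cep63, Cit, Aspm, Cdk5rap2, Stil, Cenpj, Wdr62, Mcph1, Cep152 and Cep135. A pair counted as separated where both pools gave the same direction on log2(TPM + 1) and both differences exceeded the larger change of either gene between pools. By that rule 3 of 9 neighbouring pairs were separated: Cit above Aspm, Cdk5rap2 above Stil, and Mcph1 above Cep152. The order thus falls into blocks whose inner ranks the data do not resolve: Cep63 with Cit, Aspm with Cdk5rap2, the run of Stil, Cenpj, Wdr62 and Mcph1, and Cep152 with Cep135. Within the run of 4, Stil was still separated from Wdr62 and from Mcph1. Over all 45 possible pairs, 38 were separated. All these levels are gene totals, and full-length coding transcripts gave the opposite direction for the 3 separated neighbours. Cit-201 (17.0 and 15.9 TPM in replicates 1 and 2) was below Aspm (24.7 and 23.1 TPM). Cdk5rap2-206 (6.11 and 5.99 TPM) was below Stil-201 (16.1 and 15.3 TPM). Mcph1-201 (8.32 and 8.64 TPM) was below Cep152 (10.0 and 9.40 TPM). Ranks by read number differ, since a long transcript yields more reads per molecule: Aspm was the third in TPM but had the most expected counts, 4860 in replicate 1 and 4736 in replicate 2, while Cep63, the highest in TPM, was the fifth.

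**Figure D1:**
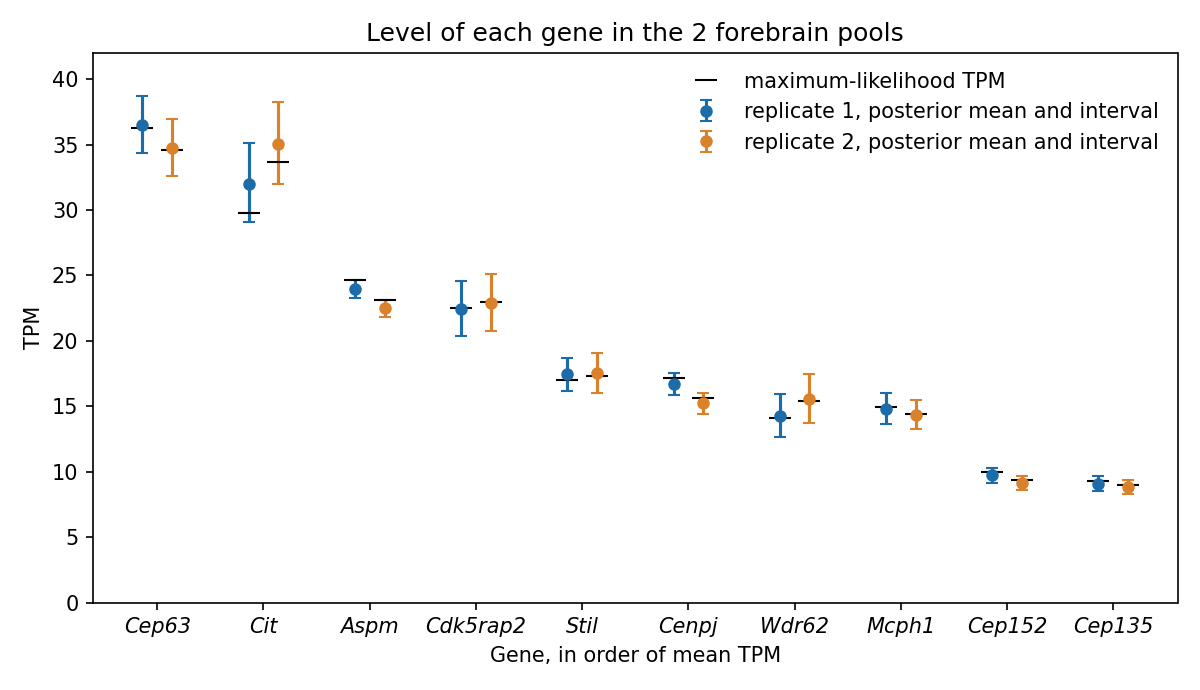
Level of each gene in TPM (vertical axis) in replicate 1 (blue) and replicate 2 (orange). Points and bars are the deposited posterior mean and its interval, black ticks the maximum-likelihood TPM used in the text; Cep63 and Cit stand highest at 29.8 to 36.2 TPM, Cep152 and Cep135 lowest at 9.00 to 10.0 TPM.

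Promoters are shown here for the genes with repeated CCAAT boxes, the sequence bound by the factor NF-Y in many genes expressed at the division stage of the cell cycle. RefSeq sequence of GRCm38.p6, 250 bases before to 50 after the start, was matched for 9 of the genes and not for Mcph1. CCAAT, read on both strands, occurred in 5 of 9 (Aspm, Wdr62, Stil, Cep152 and Cep135), against 37.9% of the 27025 promoters in the table. It occurred 3 times in each of Aspm, Wdr62, Stil and Cep152, a number reached by 3.56% of all promoters. No share was computed over promoters matched for expression or base composition, so these counts do not set the 9 genes apart from similar genes. In the sequences, written 5′ to 3′ on the gene's strand, capitals mark CCAAT or its reverse complement ATTGG. They are Aspm at chr1:139454523-139454822 (plus strand), Wdr62 at chr7:30280372-30280671 (minus), Stil at chr4:114999868-115000167 (plus) and Cep152 at chr2:125625064-125625363 (minus).
Aspm: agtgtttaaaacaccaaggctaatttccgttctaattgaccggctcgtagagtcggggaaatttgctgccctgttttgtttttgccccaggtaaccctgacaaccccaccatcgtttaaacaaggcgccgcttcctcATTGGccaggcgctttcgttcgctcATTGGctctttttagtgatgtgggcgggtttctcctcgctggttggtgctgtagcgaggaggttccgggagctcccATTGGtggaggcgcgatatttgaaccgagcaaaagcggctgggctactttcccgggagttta
Wdr62: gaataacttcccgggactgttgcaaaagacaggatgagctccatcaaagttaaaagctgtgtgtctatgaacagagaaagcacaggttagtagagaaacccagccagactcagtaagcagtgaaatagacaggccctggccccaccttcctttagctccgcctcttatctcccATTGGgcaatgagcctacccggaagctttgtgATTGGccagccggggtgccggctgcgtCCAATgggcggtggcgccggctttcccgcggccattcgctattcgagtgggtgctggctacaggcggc
Stil: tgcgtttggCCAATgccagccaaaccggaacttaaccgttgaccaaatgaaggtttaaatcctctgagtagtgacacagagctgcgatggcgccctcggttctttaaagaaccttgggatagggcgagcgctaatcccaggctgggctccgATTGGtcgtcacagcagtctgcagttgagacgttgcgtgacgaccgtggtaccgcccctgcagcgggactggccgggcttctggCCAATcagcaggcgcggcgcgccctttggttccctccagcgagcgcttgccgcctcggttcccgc
Cep152: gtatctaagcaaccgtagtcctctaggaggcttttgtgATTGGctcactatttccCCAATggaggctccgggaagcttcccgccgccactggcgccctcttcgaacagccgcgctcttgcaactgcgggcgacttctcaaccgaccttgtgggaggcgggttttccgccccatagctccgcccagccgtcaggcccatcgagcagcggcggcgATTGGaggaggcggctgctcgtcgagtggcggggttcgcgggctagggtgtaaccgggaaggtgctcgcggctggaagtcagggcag

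Other motifs were searched in the same windows on both strands, and no match overlapped another in these 9 promoters. The GC box GGGCGG was present in 9 of 9, against 35.9% of all promoters, in windows that were 53 to 73% G or C against a median of 52.7% over all. TTCCCGC, an E2F-type site, occurred in Wdr62, Stil and Cep152 (4.66% of all promoters) and the E2F-type TTGGCGC in 0 of 9 (2.54%). The cell cycle homology element TTTGAA occurred in Aspm and Cdk5rap2 (18.1%), and its variant TTCGAA in Cep152 (1.57%). Genes with 3 CCAAT boxes lay throughout the order of levels, from Aspm at rank 3 to Cep152 at rank 9. The Cep63 window is placed at the start of Cep63-201, which held 5.50% and 8.49% of the gene's TPM; the leading Cep63-206 starts 410 bases upstream. A match is a description of letters and no evidence of binding.

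Centriole duplication is represented by 5 of the genes; gene positions are on GRCm38 (mm10), from M21. Cep63 (ENSMUSG00000032534, chr9:102584588-102626534, minus strand) and Cep152 (ENSMUSG00000068394, chr2:125563088-125625113, minus strand) encode proteins that form a ring around the parent centriole, where Cep152 brings in the kinase Plk4. Cep63 measured 36.2 and 34.6 TPM in replicates 1 and 2, and Cep152 measured 10.0 and 9.40 TPM. On the deposited transcript lengths, Cep63 was 3.62-fold and 3.68-fold above Cep152 in the 2 pools, a fold that depends on the short model of Cep63-206. Plk4, the kinase that starts duplication, stood far above its recruiter at 53.3 and 55.6 TPM, 5.33-fold and 5.92-fold the level of Cep152. Cep192, the other Plk4 receptor, was also above it at 17.2 and 15.9 TPM.

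Stil (ENSMUSG00000028718, chr4:115000159-115043196, plus strand) and Cenpj (ENSMUSG00000064128, chr14:56526761-56575425, minus strand) act at the next step. Stil, a substrate and activator of Plk4, loads the cartwheel protein Sass6, and Cenpj (CPAP) binds Stil and adds tubulin to the new centriole. Stil measured 17.0 and 17.3 TPM in replicates 1 and 2, and Cenpj 17.2 and 15.6 TPM, and these levels were not separated. Of the 16 pairs of a gene with a relative or partner that were examined, 14 were separated. Among the microcephaly genes themselves, 38 of 45 possible pairs were separated by the same rule. No share over pairs of all genes was computed, so the count does not set relatives or partners apart from other pairs. Sass6 was slightly and separably higher than Stil, at 19.5 and 18.7 TPM. Cep135 (ENSMUSG00000036403, chr5:76588698-76646466, plus strand), which links the cartwheel to the microtubule wall, was the lowest of all at 9.31 and 9.00 TPM. Its relative Tsga10, better known from sperm, measured 16.5 and 15.1 TPM, 1.78-fold and 1.67-fold higher than Cep135.

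Cep63 also has a relative, Deup1, which builds many centrioles at once in multiciliated cells. Deup1 was at 1.02 and 2.47 TPM in replicates 1 and 2, from 51 and 131 expected counts, so that Cep63 was 35.5-fold and 14.0-fold higher. The direction held in both pools, while the level of Deup1 itself differed more between pools than that of any of the 10 genes.

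Cdk5rap2 (ENSMUSG00000039298, chr4:70216856-70410443, minus strand) recruits the gamma-tubulin ring to the pericentriolar material. It measured 22.5 and 22.9 TPM in replicates 1 and 2, with 2679 and 2764 expected counts. Pericentrin (Pcnt), which holds Cdk5rap2 at the centrosome, was lower at 15.2 and 15.0 TPM. This holds for the gene total of Cdk5rap2 only. Its full-length coding transcript, Cdk5rap2-206, was at 6.11 and 5.99 TPM, below the gene total of Pcnt. The paralog of Cdk5rap2, Pde4dip (myomegalin), was higher, at 31.4 and 28.7 TPM. Deup1 was thus scarce beside Cep63, whereas the relatives of Cdk5rap2 and Cep135 exceeded the microcephaly gene itself.

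At the spindle pole, Aspm (ENSMUSG00000033952, chr1:139454772-139494091, plus strand) and Wdr62 (ENSMUSG00000037020, chr7:30240138-30280419, minus strand) act together to focus microtubules and hold the centrosome in place. Aspm measured 24.7 and 23.1 TPM in replicates 1 and 2, with 4860 and 4736 expected counts. Wdr62, a known partner of Aspm at the pole, was lower at 14.1 and 15.4 TPM, so that Aspm was 1.75-fold and 1.5-fold above it. These folds use the gene total of Wdr62. Its leading coding transcript, Wdr62-201, was at 6.68 and 5.86 TPM, further below Aspm. Mapkbp1, the closest relative of Wdr62, stood at 4.33 and 3.78 TPM, and Wdr62 was 3.26-fold and 4.07-fold above it.

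Cit (ENSMUSG00000029516, chr5:115845278-116008947, plus strand) encodes citron kinase, which holds the midbody together at the end of cytokinesis. It measured 29.8 and 33.7 TPM in replicates 1 and 2, and its expected counts were 3722 and 3767. Kif14, the kinesin that brings citron kinase to the midbody and is itself a microcephaly gene, was low at 6.86 and 7.07 TPM. The gene total of Cit was 4.35-fold and 4.76-fold higher. The related kinases Rock1 (18.2 and 19.8 TPM) and Rock2 (12.1 and 13.6 TPM) were both below the gene total of Cit in each pool. The transcript that encodes the kinase form, Cit-201, was at 17.0 and 15.9 TPM, below the gene level of Rock1 and above that of Rock2 in both pools. Cit-201 was also above the gene level of Kif14 in both pools, by less than the folds given for the Cit total.

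Mcph1 (ENSMUSG00000039842, chr8:18595131-18803189, plus strand), or microcephalin, keeps chromosomes from condensing early by inhibiting condensin II and also acts in DNA damage signalling. It measured 15.0 and 14.4 TPM in replicates 1 and 2, with 1089 and 1136 expected counts. Of the 6 genes listed around it, the condensin II subunits Ncapg2 (22.4 and 22.8 TPM) and Ncapd3 (28.6 and 25.5 TPM) were nearest to it in level. Ncaph2, the third subunit specific to condensin II, was far higher at 155 and 153 TPM. Set, a histone chaperone that binds Mcph1, was the highest of the list at 638 ± 2.96 TPM. It was followed by Smc2 at 200 ± 14.2 TPM and Smc4 at 176 ± 17.7 TPM, which both condensins share. By expected counts in replicates 1 and 2, Smc2 (6131 and 5828) was below Ncaph2 (7087 and 7119). The order in TPM therefore depends on the transcript lengths used.

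The 10 genes had a median of 16.8 TPM, and each of the 6 partner lists had a higher one. The 25 other microcephaly genes were all above 1 TPM and had a median of 45.8 TPM; Lmnb1 of the nuclear lamina (204 ± 19.1 TPM), the condensin I subunit Ncapd2 (193 ± 15.0 TPM) and the dynein regulator Nde1 (133 ± 0.445 TPM) led, and Kif14 was lowest. Of these 25, 15 exceeded Cep63, the highest of the 10. The 20 centriole assembly genes came closest, with a median of 26.02 TPM, and 11 of them lay within the range of the 10 genes. Centrins led that list, with Cetn3 at 195 ± 1.16 TPM and Cetn2 at 86.9 ± 2.23 TPM, followed by Cep57 at 61.2 ± 1.85 TPM, and Rttn was lowest at 5.64 ± 0.148 TPM.

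The lists for the pericentriolar material, spindle pole and midbody also had higher medians. The 22 pericentriolar genes had a median of 40.5 TPM, led by Akap9 (239 ± 0.990 TPM), Tacc3 (218 ± 0.488 TPM) and Ckap5 (142 ± 2.23 TPM). The second gamma-tubulin gene Tubg2 was lowest at 6.55 ± 0.361 TPM. Akap9 had fewer expected counts than Ckap5, 8827 against 12276 in replicate 1 and 9145 against 11975 in replicate 2. The lead of Akap9 over Ckap5 in TPM therefore depends on the transcript lengths used. The 14 spindle pole partners centred on 84.3 TPM, and 13 exceeded Cep63. Among them Tpx2, a spindle assembly factor, measured 117 ± 12.9 TPM, and Numa1, which anchors dynein at the pole and cortex, measured 77.5 ± 5.37 TPM. The 14 midbody genes had a median of 83.3 TPM, with Rhoa (276 ± 5.14 TPM), Birc5 (237 ± 5.94 TPM) and Cdca8 (205 ± 7.84 TPM) highest and Kif14 lowest. The median of the 6 genes around Mcph1 was 165 TPM. Some genes stand in more than 1 list, and some, such as Rhoa and Set, act in many processes beyond division.

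**Figure D2:**
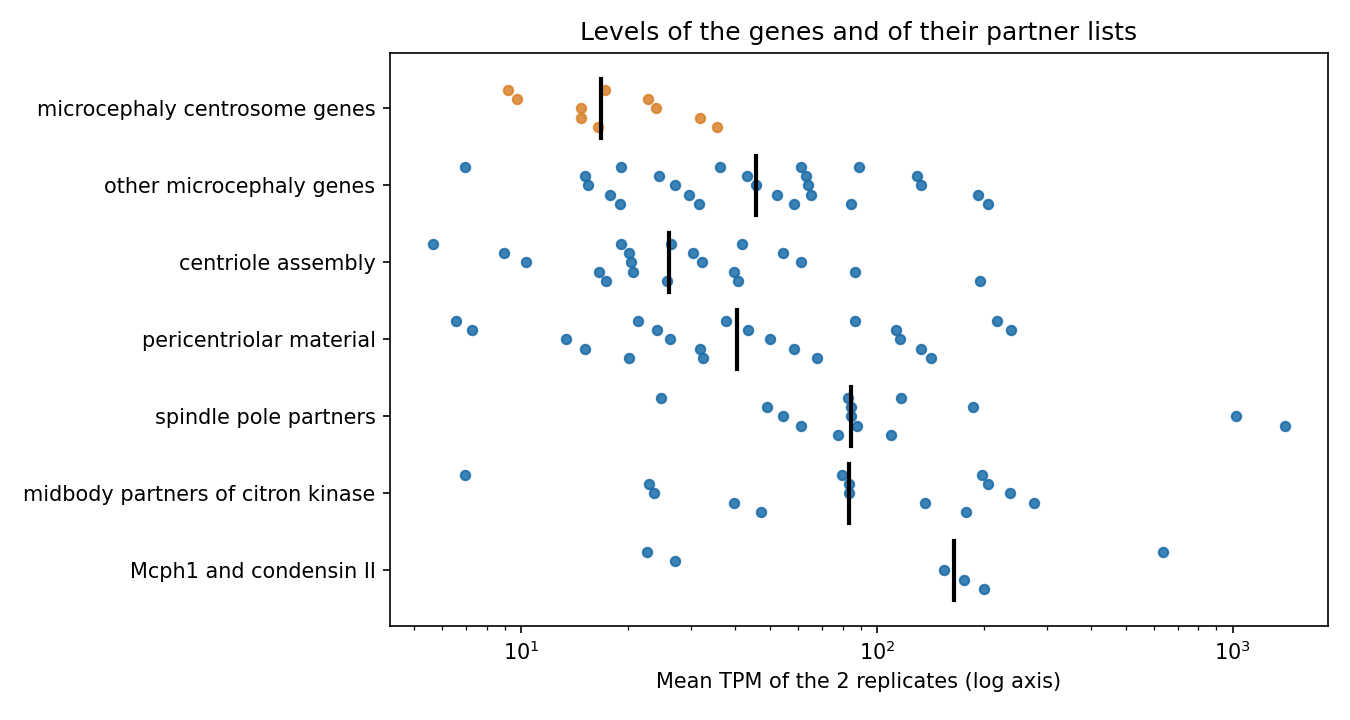
Mean TPM of the 2 pools on a log axis, 1 point per gene, for the 10 genes (orange, top row) and 6 partner lists (blue); vertical bars are medians. The 10 genes lie between 9.16 and 35.4 TPM around a median of 16.8 TPM, and the list medians run between 26.02 TPM for centriole assembly and 165 TPM for the genes around Mcph1.

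The tables list 58 transcripts for the 10 genes. Aspm, Cenpj and Cep152 were each quantified as a single transcript, while the other 7 had between 3 and 18. The leading transcript, the one with the largest percent of its gene's TPM, was the same in both pools for all 7 of these, as for 90.3% of the 10071 genes with several transcripts at a mean of 1 TPM or more. It carried a consensus coding (CCDS) entry in 8 of the 10 genes. The exceptions were Cdk5rap2 and Cep63. Aspm, Cenpj and Cep152, among the 8, had no other transcript that could lead, and no share over all genes was computed. Stil-201 held 94.9% and 88.3% of Stil in replicates 1 and 2, and Cep135-202 held 83.2% and 78.9% of Cep135. The remainder of Cep135 was Cep135-203, a retained-intron transcript, at 16.8% and 21.1%.

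**Figure D3:**
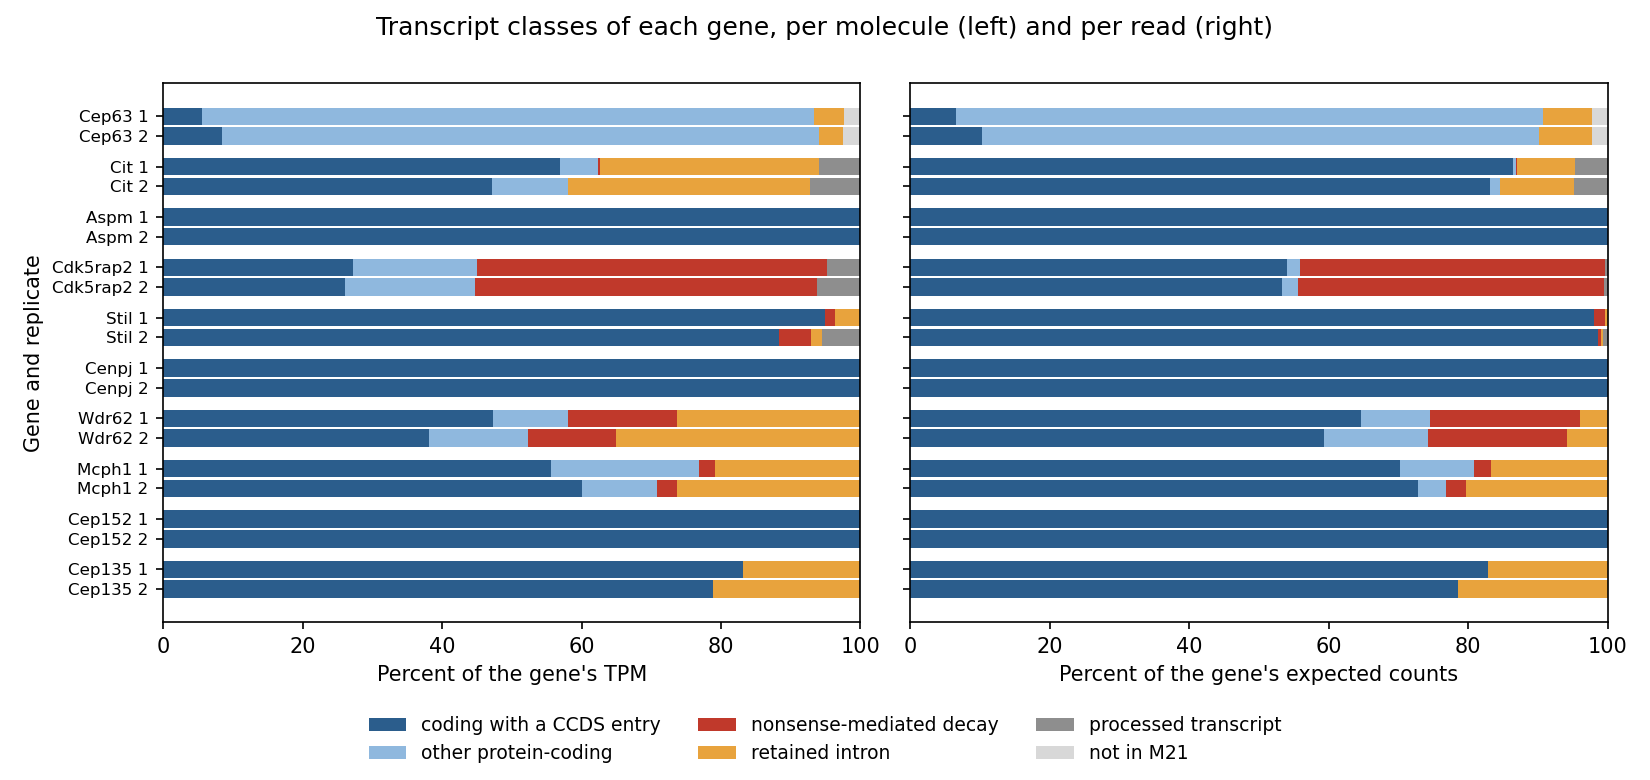
Percent of each gene's TPM (left panel, per molecule) and of its expected counts (right panel, per read) by M21 transcript class, with replicate 1 above replicate 2 for each gene. Cdk5rap2 has the largest nonsense-mediated decay share, 50.2% and 49.1% of TPM, while Aspm, Cenpj and Cep152 have only 1 transcript each.

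Cdk5rap2 was the 1 gene of the 10 whose leading transcript was not classed as coding. Cdk5rap2-201, which M21 classes as a target of nonsense-mediated decay (the removal of mRNAs with an early stop codon), held 50.2% and 49.1% of the gene's TPM in replicates 1 and 2. The full-length coding Cdk5rap2-206 held 27.2% and 26.1%. Their levels were 11.3 and 11.3 TPM for Cdk5rap2-201 against 6.11 and 5.99 TPM for Cdk5rap2-206, and the deposited intervals of these transcripts did not overlap in either pool. By reads the order was the opposite: Cdk5rap2-206 received 1447 and 1475 expected counts and Cdk5rap2-201 1171 and 1216. The longer transcript measures 11847 bases, with a last exon of 6259 bases, and the shorter one 5248 bases, with a last exon of 92 bases. Cdk5rap2-205, a short transcript of 711 bases, took 17.0% and 16.2% of TPM from only 47 and 48 expected counts.

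Cdk5rap2-201 wholly lacks 3 of the 37 exons of Cdk5rap2-206, exons 4, 5 and 12, of 111, 77 and 219 bases. Exons 4 and 5 are printed because their loss removes 188 bases, which is not a multiple of 3, and M21 gives Cdk5rap2-201 a reading frame of 228 bases where Cdk5rap2-206 has 5466. Both are coding exons on the minus strand of mm10, exon 4 at chr4:70380191-70380301 and exon 5 at chr4:70376793-70376869, as written in M21 transcript sequence, with capitals marking bases that Cdk5rap2-201 lacks.
Cdk5rap2-206 exon 4: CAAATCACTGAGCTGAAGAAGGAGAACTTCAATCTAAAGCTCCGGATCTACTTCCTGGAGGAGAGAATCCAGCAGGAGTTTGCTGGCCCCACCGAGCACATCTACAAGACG
Cdk5rap2-206 exon 5: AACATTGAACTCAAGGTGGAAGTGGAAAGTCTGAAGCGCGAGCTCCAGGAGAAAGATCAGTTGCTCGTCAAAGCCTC

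Wdr62 was the most divided gene, with 4 transcripts at a mean of 10% or more. The coding Wdr62-201 led with 47.3% and 38.1% of TPM in replicates 1 and 2. Wdr62-205, of the nonsense-mediated decay class, held 15.7% and 12.8%. The coding Wdr62-204, which lacks 10 exons of Wdr62-201, held 10.8% and 14.1%, and the retained-intron Wdr62-207 held 10.6% and 12.9% from 17 and 23 expected counts. The order of these 3 lesser transcripts differed between the pools. Retained-intron transcripts together made 26.3% and 35.0% of the TPM of Wdr62 but 3.94% and 5.84% of its expected counts.

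Wdr62-205 differs from Wdr62-201 at 2 adjoining exon edges, shown because these bases alone distinguish the transcripts apart from their starts. Exon 26 of Wdr62-201, at chr7:30243034-30243141 on the minus strand, ends with 9 bases (capitals) that Wdr62-205 lacks. Exon 27 of Wdr62-205 begins 58 bases earlier, and these are in capitals in the second sequence, which runs into the shared part of the exon at chr7:30242848-30242935. M21 gives Wdr62-205 a reading frame of 3228 bases and Wdr62-201 one of 4572.
Wdr62-201 exon 26: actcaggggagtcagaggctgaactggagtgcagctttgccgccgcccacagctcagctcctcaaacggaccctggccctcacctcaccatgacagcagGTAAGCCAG
Wdr62-205 exon 27 start: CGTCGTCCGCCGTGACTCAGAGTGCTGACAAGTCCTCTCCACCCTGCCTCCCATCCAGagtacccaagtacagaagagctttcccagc

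Cit had 18 listed transcripts, 7 of them at 0 in both pools. The full-length Cit-201, which spans 47 exons and encodes the kinase form, held 56.9% and 47.2% of TPM in replicates 1 and 2, and 86.4% and 83.2% of expected counts. The retained-intron Cit-215, which covers exons at the start of the gene and lacks 37 exons of Cit-201, held 26.1% and 27.3% of TPM from 247 and 303 expected counts. Cit is also known for a shorter neuronal product without the kinase domain, citron-N. Transcripts that start after exon 10 of Cit-201 together made 7.56% and 7.37% of TPM, most of it Cit-213 at 4.86% and 4.24%, which lacks the first 10 exons and is classed as a processed transcript with no reading frame.

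Mcph1-201, the full coding transcript of 14 exons, held 55.6% and 60.1% of TPM in replicates 1 and 2. Mcph1-206, a retained-intron transcript that lacks the last 2 exons, held 20.9% and 26.3%. Mcph1-205, a coding transcript that ends in an extended exon 8 and lacks 6 later exons, showed the widest difference between pools among transcripts at a mean of 10% or more, at 18.7% and 6.07%. Its expected counts were 111 and 36. Its deposited intervals, 1.59 to 3.96 TPM in replicate 1 and 0.217 to 1.90 TPM in replicate 2, overlapped.

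**Figure D4:**
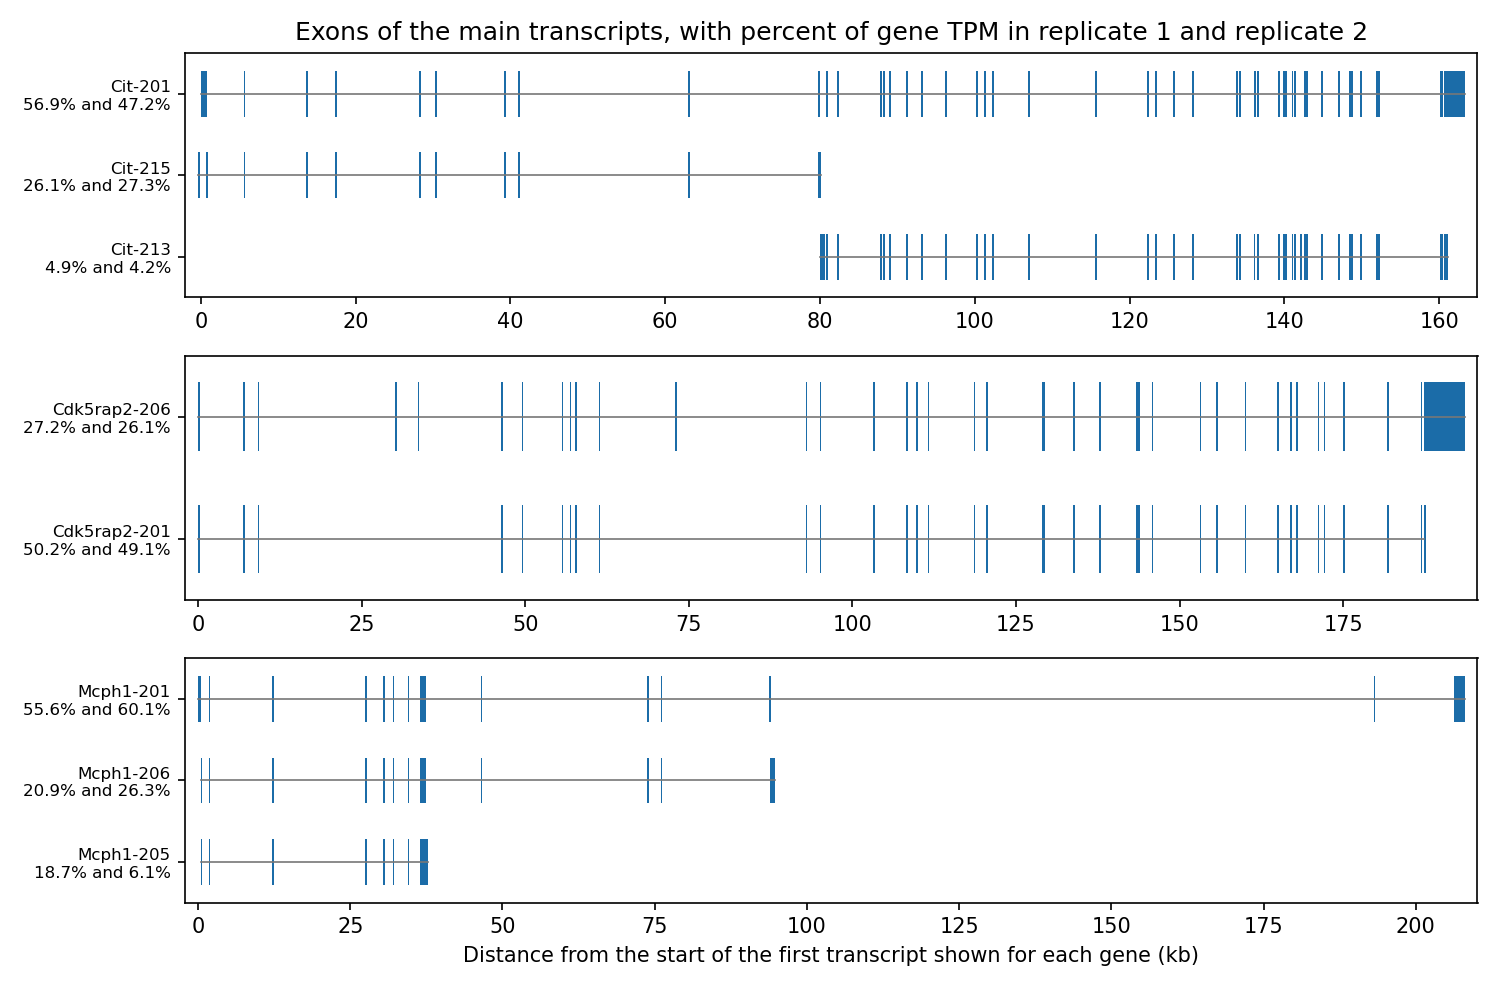
Exons (blue blocks, to scale) of the main transcripts of Cit, Cdk5rap2 and Mcph1 against distance in kb from the start of the first transcript shown for the gene, with the percent of gene TPM in replicate 1 and replicate 2. Cit-215 and Cit-213 meet near 80 kb, Cdk5rap2-201 lacks exons 4, 5 and 12, and Mcph1-206 and Mcph1-205 stop before the later exons of Mcph1-201.

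Cep63 was led by Cep63-206, with 87.3% and 81.4% of TPM in replicates 1 and 2, rather than by Cep63-201, the transcript with a CCDS entry, at 5.50% and 8.49%. In M21, Cep63-206 starts 410 bases upstream of Cep63-201 and lacks 5 of its exons. Its deposited model is the shorter one named above.

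Annotated genes overlap 6 of the 10. Anapc13, a subunit of the anaphase-promoting complex, starts on the other strand inside the first exon of Cep63 and overlaps the gene by 239 bases; it measured 150 and 163 TPM in replicates 1 and 2. The sources used here do not say whether counting used strand, so reads in that overlap could belong to either gene. Thap8, which overlaps Wdr62 by 326 bases head to head, was nearly silent at 0 and 0.12 TPM. Parp4, at 0.82 and 0.98 TPM, starts 194 bases from the annotated edge of Cenpj but 3773 bases from the start of the quantified Cenpj-201. Angpt2, a vessel growth factor gene on the other strand within Mcph1, was at 2.11 and 1.70 TPM.

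The pseudogene Ywhaq-ps3 lies on the same strand within Cdk5rap2 and measured 10.7 and 13.8 TPM in replicates 1 and 2. The remaining overlapping entries with values (Rps12-ps5, Gm25763, Gm16725, Gm17149 and Gm22431) were under 1 TPM in both pools, except Gm22431 within Cenpj, listed at 6.20 TPM in replicate 1 from 1 expected count and at 0 in replicate 2. Gm42473 and Gm42471, within Cit, had no value in the tables.

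The differences between pools were small for these genes, and 10 genes are too few to set them apart from all genes. The log2 ratio of replicate 1 over replicate 2, on TPM + 1, had a median of 0.05 and ran between −0.17 for Cit and 0.13 for Cenpj, beside a median of −0.01 over the 15192 genes at a mean of 1 TPM or more. The median absolute ratio was 0.07 for the 10 genes and 0.10 for those 15192. A difference past 1.2-fold was seen in 0 of 10, against 17.8% of all genes, in a set with no low-count member. The deposited intervals of the 2 pools did not overlap for 1 of 10, Aspm (23.3 to 24.7 TPM in replicate 1 and 21.8 to 23.1 TPM in replicate 2), against 13.9% of all genes. The interval of Aspm was also the narrowest, at 5.61% and 5.69% of its posterior mean, and in replicate 1 its maximum-likelihood TPM of 24.69 lay just above the upper bound of 24.66.

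The direction of these small differences depended on the unit. In TPM, 6 of 10 genes were higher in replicate 1, beside 46.8% of all genes. On expected counts scaled by the trimmed mean of M-values (TMM), which ignore transcript length, 10 of 10 were higher in replicate 1, beside 51.0% of all genes, with a median log2 ratio of 0.08 and a highest of 0.14. Cit changed sign, at −0.17 in TPM and 0.05 in scaled counts, and so did Wdr62 (−0.11 and 0.07), Stil (−0.02 and 0.09) and Cdk5rap2 (−0.03 and 0.02). The effective length of a gene is averaged over the transcripts present, and for these genes it was longer in replicate 1: 6194 bases against 5336 in replicate 2 for Cit, 3399 against 2984 for Wdr62, 5022 against 4646 for Stil, and 5911 against 5744 for Cdk5rap2. Beside this, the 5 cycling markers summed to 1168 and 1140 TPM in replicates 1 and 2, the 6 progenitor markers to 2515 and 2369 TPM, and the 5 neuron markers to 1398 and 1303 TPM. Single markers were mixed. Fabp7, at 952 and 800 TPM, carried the progenitor difference. Vim (906 and 922 TPM), Pax6 (90.1 and 91.5 TPM) and Sox2 (55.2 and 58.8 TPM) were lower in replicate 1. Among cycling markers, Cdk1 (310 and 314 TPM) was lower in replicate 1. Among neuron markers, Stmn2 (207 and 212 TPM) and Rbfox3 (13.8 and 16.0 TPM) were lower there too. The erythroid and mesenchyme sums were lower in replicate 1. Their part in the differences was not tested.

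**Figure D5:**
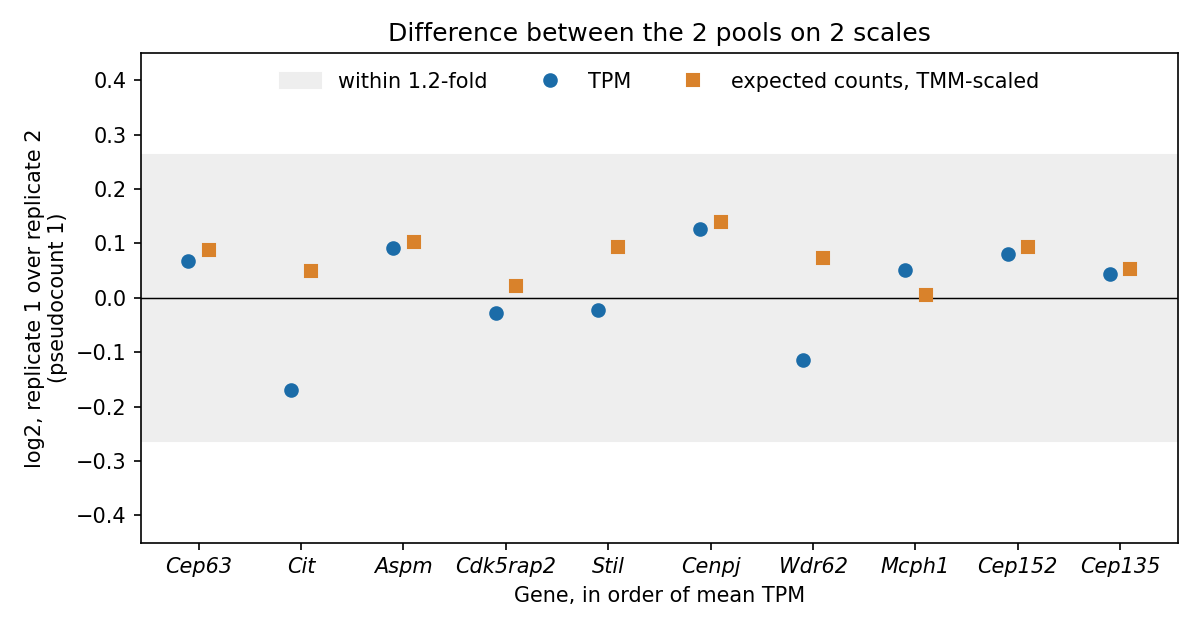
Log2 ratio of replicate 1 over replicate 2 for each gene, from TPM (blue circles) and from TMM-scaled expected counts (orange squares), both with a pseudocount of 1; the grey band marks differences within 1.2-fold. All points lie within the band, and the 4 genes below 0 in TPM lie above 0 in scaled counts.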

How the data were processed

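Tables for 2 total RNA-seq libraries were used as deposited. Per the deposited text, each was derived from that replicate's transcriptome alignments on mm10 with GENCODE M4. The sources used here name no aligner, quantifier or interval level. The authors deposited expected counts, which need not be whole, and TPM relative to all features, of which ERCC spike-ins took 9.19% in replicate 1 and 8.25% in replicate 2. They also deposited the posterior mean TPM, the bounds of its interval (a signal column in TPM units) and, for each transcript, the percent it makes up of the gene's TPM. The maximum-likelihood TPM is the value used in the text.

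Symbols, transcript names, classes and exons come from GENCODE M21 by identifier without version; 54 of the 58 transcripts have the same length there. Log2 ratios used a pseudocount of 1 and understate changes of low genes. Expected counts were rounded for TMM (edgeR 4.0.16) and DESeq2 1.42.0 size factors; other steps used Python 3.11.15, pandas 2.3.3, numpy 2.4.6, matplotlib 3.10.9 and R 4.3.3. A floor of 3 counts equals a median of 0.0285 TPM for the 10 genes in replicate 1 and 0.0288 TPM in replicate 2. Floors and intervals cover the error of counting and assigning reads only, and reads lacking molecular identifiers are not independent. The 1.2-fold ratio and the scaling factors were tested on simulated counts in which counting error was the only spread. The separation rule was checked on fixed values. With 1 group of 2 pools, no p-value was computed, and likeness of pattern between genes could not be measured over 2 samples.

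The genes, lists and pairs were chosen with earlier results of these data known. The text names all 10 genes, their transcripts at a mean of 10% or more, the listed pairs, the 3 highest and the lowest of each list, and annotated neighbours; a few genes covered by it are not reported here, and Cit-213, Cep63-201, Tpx2, Numa1, Ncapd3, Ncaph2, the single markers and 3 Hox genes were named after their values were seen.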

Additional observations from a re-analysis of the deposited data

How the results depend on the processing

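No paired analysis was possible because both libraries form 1 group. Rescaling TPM to named mouse genes, without spike-ins and unnamed features, raised the median of the 10 genes to 18.4 TPM and the list medians to 50.3 TPM (other microcephaly genes), 28.6 TPM (centriole assembly), 44.5 TPM (pericentriolar material), 92.7 TPM (spindle pole), 91.6 TPM (midbody) and 181 TPM (genes around Mcph1), since the total became smaller. With intervals rescaled by TMM factors, those of 2 genes rather than 1 did not overlap between pools, Cenpj joining Aspm. No share over all genes was computed on the rescaled intervals, so this count does not set the 10 genes apart. The 3 separated neighbours and 14 separated pairs were the same in number under a pseudocount of 0.1, posterior mean TPM and TPM over named genes. All of these settings use gene totals. Leaving out each pool in turn gave medians of 16.5 and 17.1 TPM for the 10 genes. The sign changes of Cit, Wdr62, Stil and Cdk5rap2 between TPM and scaled counts are given above, and their cause was not tested. With 2 pools, differences smaller than the spread between them could not be resolved, and transcript shares resting on few reads, such as Wdr62-207, are the least certain.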
